A study of Mus musculus with 2 samples.

Results

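The cells described here are the MHC class II-high dendritic-like cells of 2 mouse blood progenitor cultures, 125 of 8916 cells. A barcode counted as a cell when at least 500 genes were detected in it and mitochondrial transcripts took no more than 10% of its UMIs (a UMI, or unique molecular identifier, counts each captured mRNA molecule once). The class II-high cells were selected on the measured UMIs of the class II genes Cd74, H2-Ab1, H2-Aa and H2-Eb1, which together had to reach 5 UMIs and 0.1% of the cell's UMIs. The levels of these 4 genes are therefore a description. The Cxxc5 knockdown culture gave 63 such cells of 6004, and the control culture gave 62 of 2912.

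The knockdown cells were C57BL/6 mouse LSK cells (lineage-negative, Sca-1-positive, Kit-positive bone marrow cells, rich in stem and progenitor cells) into which a retrovirus brought a short hairpin RNA (shRNA) against Cxxc5. The control cells were LSK cells of the same strain infected with a retrovirus whose shRNA targets no mouse gene. Infected cells of both groups were sorted by GFP and cultured for 3 days in DMEM with 20% fetal bovine serum, GM-CSF at 10 ng/ml and SCF at 10 ng/ml. Each group was a pool of 5 samples and became 1 library of 10x Genomics 3' version 2 chemistry, so neither group has a replicate and no difference between the cultures was tested. The sources used here do not state the age of the mice or whether both pools were drawn from the same animals. All intervals are 95% intervals that cover counting error only. Those of levels and ratios treat UMIs as independent, and are too narrow where a few cells hold most of a gene's UMIs.

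MHC class II molecules show peptides from engulfed proteins to CD4 T cells. H2-Aa with H2-Ab1 forms a surface molecule, and H2-Eb1 is a chain of another, which cannot form without its partner chain. Cd74 (the invariant chain) guards the groove until it reaches the endosome, and H2-DM exchanges Cd74's remnant for peptide. Only RNA was measured here, so the levels of H2-Eb1 and the others do not give surface molecules. Ciita switches the whole group on through a complex of RFX, CREB and NF-Y factors at a conserved promoter block. Dendritic cells are the cell type best known for this program, and GM-CSF is a classical means of growing them from bone marrow.

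The promoters of the class II genes are shown because the selection rests on them and because the other genes of the same block on chromosome 17 are measured below. The Y box, the part of the block that NF-Y recognises, reads as the letters GATTGG in the strand of the gene. In the windows below, GATTGG and the letters GATGATG further upstream are in capitals, and both were chosen after the sequences were seen. The sequences are RefSeq promoters on GRCm38.p6, written 5′ to 3′ on the strand of the gene.
H2-Aa: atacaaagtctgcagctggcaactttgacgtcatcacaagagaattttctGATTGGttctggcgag
H2-Eb1: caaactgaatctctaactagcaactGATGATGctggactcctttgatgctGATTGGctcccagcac
H2-DMb1: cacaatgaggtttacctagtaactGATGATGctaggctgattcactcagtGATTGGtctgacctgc
H2-DMb2: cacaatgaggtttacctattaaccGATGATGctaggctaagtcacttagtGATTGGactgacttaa
H2-Oa: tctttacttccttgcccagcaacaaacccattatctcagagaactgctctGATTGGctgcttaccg
H2-Ob: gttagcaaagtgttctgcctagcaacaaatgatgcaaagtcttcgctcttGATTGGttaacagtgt

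The H2-Aa window is chr17:34287857-34287922 on the minus strand. The others are on the plus strand, at chr17:34305757-34305822 for H2-Eb1, chr17:34153079-34153144 for H2-DMb1, chr17:34145108-34145173 for H2-DMb2, chr17:34092285-34092350 for H2-Oa and chr17:34238797-34238862 for H2-Ob. GATTGG begins 49, 60, 62, 91, 44 and 58 bases before the annotated start of H2-Aa, H2-Eb1, H2-DMb1, H2-DMb2, H2-Oa and H2-Ob. Of 8 genes looked up, 7 were matched, and H2-Ab1 was not. One of 2 H2-DMa promoters also held GATTGG, 199 bases before its start. Across all 32851 promoters of the table, 14.6% held GATTGG and 2.92% held GATGATG on either strand of the 250 bases before the start. Both were present in 0.347% of them. A match of letters is a description and not a binding site.

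Class II transcripts were concentrated in the selected cells. Knockdown class II-high cells held 3646 of the 4142 class II UMIs of their library (88.0%), and those of the control held 8267 of 8715 (94.9%). The 4 genes took between 0.102% and 2.87% of a cell's UMIs in knockdown class II-high cells, with a median of 0.570%. In control class II-high cells they took between 0.109% and 5.38%, with a median of 0.774%, so the ranges overlapped over most of their length. The knockdown cells nearest the limit of 0.1% had 0.102% and 0.118% inside it and 0.0942% and 0.0816% outside it. The control cells nearest it had 0.109% and 0.111% inside and 0.0985% and 0.0983% outside. Of the other cells, 6.65% in the knockdown and 10.5% in the control library held at least 1 class II UMI, and none of them held more than 13 or 21.

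**Figure D1:**
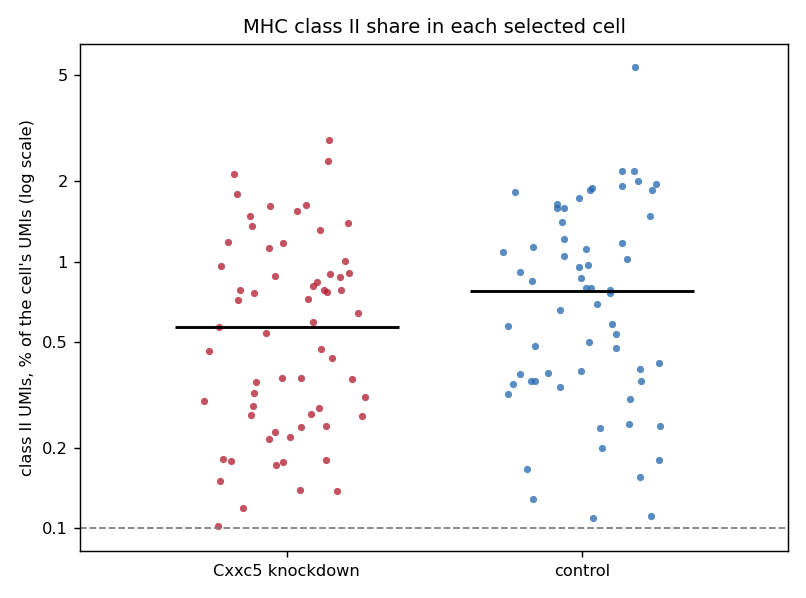
Class II UMIs as a percentage of each selected cell's UMIs, on a log scale, for knockdown cells (left, 63 cells) and control cells (right, 62 cells). Lines are medians, 0.570% and 0.774%, and the dashed line is the selection limit of 0.1%.

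The share of cells selected was 1.05% in the knockdown library (interval 0.807 to 1.34%) and 2.13% in the control library (1.64 to 2.72%). The lower share in the knockdown library stood beside a lower depth. Knockdown class II-high cells had a median of 7943 UMIs and the other knockdown cells 10614, and control class II-high cells had a median of 14167 UMIs and the other control cells 17292. When every cell was first thinned to 5000 UMIs, the shares were 0.876% in the knockdown and 2.04% in the control library. Thinning left out 641 knockdown and 115 control cells. With 1 library per group the knockdown cannot be told apart from differences between cultures or sorts. The libraries had 26 kept barcodes in common, and none of these was a class II-high cell in either.

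Among the selecting genes, Cd74 had 3547 CPM in knockdown and 5176 CPM in control class II-high cells (CPM, the gene's UMIs per 1000000 UMIs, both summed over the cells). H2-Aa had 1210 and 1593 CPM, H2-Ab1 1064 and 1339 CPM, and H2-Eb1 665 and 893 CPM, each in knockdown and then control cells. All 4 were lower in the knockdown cells. Their sum was 6486 CPM in knockdown and 9002 CPM in control class II-high cells, a log2 ratio of -0.47 (-0.53 to -0.42). Part of the class II UMIs came from few cells: without the 3 knockdown and 3 control cells that held a Ccr7 UMI the log2 ratio was -0.37, and with the stricter limits of 10 UMIs and 0.2% it was -0.34.

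Ccl17, Plet1, Clec4n, Axl and Cdh1 were among the genes with the highest ratios of class II-high to other cells. Genes were compared where the mean of class II-high and other cells reached 50 CPM in both libraries, and the 4 selecting genes were left out. Of 2273 such genes, 110 (4.84%) were at least 2-fold higher in class II-high cells than in other cells of both libraries, and 115 (5.06%) were at least 2-fold lower. The median log2 ratio over these genes was -0.27 in the knockdown and -0.22 in the control library, and the 2 libraries were read as separate descriptions. Counts by list below stand beside 4.84% higher and 5.06% lower over all genes. A gene under 50 CPM in the other cells could reach the minimum only through the class II-high cells, which fixed its direction. A gene confined to the selected cells had to reach 100 CPM there to enter the count of higher genes. The 20 leading genes named next were therefore ranked among genes with at least 50 CPM in class II-high cells of both libraries, and the 8 lowest among genes with at least 50 CPM in the other cells of both.

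Ccl17, a chemokine that attracts T cells through CCR4, was the most abundant of the 20 leading genes. It had 1482 CPM in class II-high cells and 0.401 CPM in other cells of the knockdown library, and 1678 CPM in class II-high cells and 1.51 CPM in other cells of the control library. The class II-high cells were thus 3693-fold and 1111-fold above the other cells. A Ccl17 UMI was found in 44 of 63 knockdown and 50 of 62 control class II-high cells, and in 0.286% of other knockdown and 1.26% of other control cells. At 5000 UMIs per cell, 37 of 47 knockdown and 42 of 56 control class II-high cells held one, against 0.169% and 0.401% of the other cells. Ccl17 lies on chromosome 8 (94810453 to 94812036, plus strand, GRCm38), close to Ccl22 (94745590 to 94751699), which is described below. Of all cells with at least 3 Ccl17 UMIs, 38 of 40 in the knockdown and 43 of 47 in the control library were class II-high.

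Plet1, a surface protein first known from placenta, had 272 CPM in class II-high and 0.273 CPM in other knockdown cells, and 296 CPM in class II-high and 0.352 CPM in other control cells. It was found in 27 knockdown and 29 control class II-high cells, and every one of them also held a Ccl17 UMI. Cells with Ccl17 had more class II RNA than those without it. Their median class II share was 0.719% in the knockdown and 0.879% in the control library, and that of cells without a Ccl17 UMI was 0.288% and 0.289%. The cells with Ccl17 were also deeper, with medians of 9894 UMIs in the knockdown and 14980 UMIs in the control library. Cells without it had 4968 and 9350 UMIs, and the part of depth in this difference was not tested.

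Several other leading genes encode receptors and adhesion proteins. Clec4n (Dectin-2, a receptor for fungal mannans) had 119 CPM in class II-high and 0.0963 CPM in other knockdown cells, and 228 and 0.620 CPM in those of the control. Axl, a receptor tyrosine kinase that binds Gas6, had 171 CPM in class II-high and 1.51 CPM in other knockdown cells, and 159 and 3.29 CPM in those of the control. Cdh1, the adhesion protein E-cadherin, had 125 and 0.385 CPM in the knockdown and 110 and 1.16 CPM in the control library. Asgr2, a subunit of the asialoglycoprotein receptor, was 798-fold higher in the knockdown and 199-fold higher in the control library. Amica1, an adhesion protein of leukocytes, was 90.5-fold and 45.5-fold higher. None of these receptor and adhesion genes exceeded 3.29 CPM in the other cells.

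The remaining leading genes had other roles. Aif1, a calcium-binding partner of actin, had 185 CPM in class II-high and 1.85 CPM in other knockdown cells, and 258 and 1.84 CPM in those of the control. Kmo, an enzyme of tryptophan breakdown, had 62.3 and 1.14 CPM in the knockdown and 83.8 and 2.09 CPM in the control library. Mfge8, which bridges phagocytes to dying cells, had 158 and 2.82 CPM in the knockdown and 102 and 3.25 CPM in the control library. Ckb (creatine kinase), Dpep2 (a dipeptidase), Id3 (an inhibitor of helix-loop-helix factors), Kctd14, Ccnd1 (cyclin D1) and Arl4c (a small GTPase) were between 33.5-fold and 178-fold higher over the 2 libraries. H2-DMb2 was 73.5-fold higher in the knockdown and 71.3-fold higher in the control library.

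For 3 of the 20 genes, 1 cell held most of the UMIs. Ccl5, a chemokine that attracts T cells, had 365 CPM in knockdown and 355 CPM in control class II-high cells, but it was found in only 4 and 3 of them, and the richest cell held 93.2% and 88.7% of the UMIs. Ccl4, another chemokine, was found in 3 knockdown and 4 control cells, and the richest held 95.9% and 92.2%. Apol7c, of the apolipoprotein L family, was found in 6 knockdown and 3 control cells, and the richest held 51.7% and 90.5%. Its log2 ratio to other cells was 11.65 in the knockdown (9.73 to 14.73) and 11.70 in the control library (9.17 to 17.02), where the other cells held 2 and 1 UMIs.

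**Figure D2:**
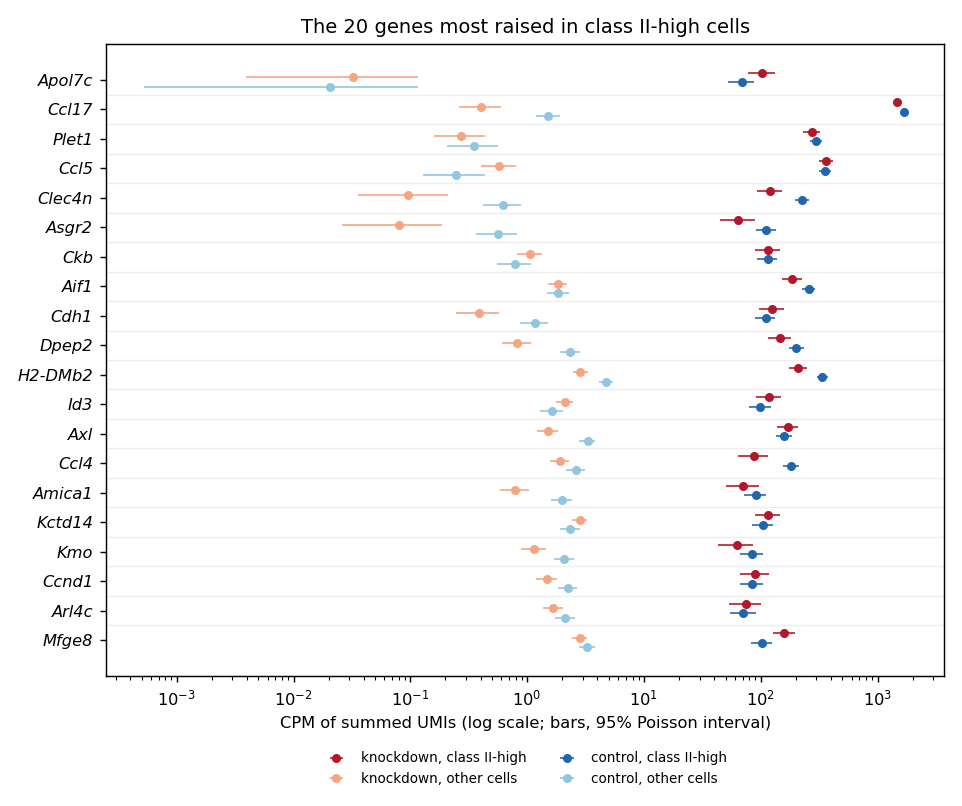
CPM of the 20 genes with the highest ratio of class II-high to other cells, on a log scale, with 95% Poisson intervals. Dark points are class II-high cells, pale points other cells, red or orange the knockdown and blue the control library; in every row the dark points lie far to the right, with Ccl17 at 1482 and 1678 CPM.

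The 8 genes with the lowest ratios included 4 of neutrophil or progenitor granules, Camp, Prss57, Ctsg and Mpo. The lowest, Cyp11a1, the side-chain cleavage enzyme of steroid synthesis, had 1.78 CPM in class II-high and 52.7 CPM in other knockdown cells, and 3.27 and 67.7 CPM in those of the control. From 1 and 3 UMIs in the class II-high cells, its log2 ratio was -4.89 (-10.19 to -2.41) in the knockdown and -4.37 (-6.65 to -2.82) in the control library. Mpo, the myeloperoxidase of granules, had 256 and 1806 CPM in the knockdown and 170 and 1511 CPM in the control library. Ctsg (cathepsin G) had 343 and 2736 CPM in the knockdown and 144 and 2392 CPM in the control library. Camp, an antimicrobial peptide gene, had 78.3 and 705 CPM in the knockdown and 10.9 and 875 CPM in the control library. Prss57, a granule protease, Fkbp11, a folding enzyme of the endoplasmic reticulum, Pde4d, a phosphodiesterase, and Dmkn were the other 4 of the 8 lowest, at 6.53 to 24.9 CPM in class II-high cells.

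Of the 13 genes listed for class II loading and processing, 6 reached the minimum and all 6 were at least 2-fold higher in class II-high cells. Over all genes compared, 4.84% were. H2-DMa, a chain of the peptide exchanger, had 404 CPM in class II-high and 29.9 CPM in other knockdown cells, and 509 and 39.7 CPM in those of the control. Ctss, the protease that trims Cd74, had 235 and 9.36 CPM in the knockdown and 344 and 11.7 CPM in the control library. H2-DMa and Ctss were below 50 CPM in the other cells of both libraries, so that their being higher was fixed by the minimum. H2-DMb1, H2-DMb2, Ctsh and Ifi30, the lysosomal thiol reductase, completed the 6. H2-Oa and H2-Ob, the chains that restrain H2-DM, were sparse, at 32.0 and 12.5 CPM in knockdown and 47.9 and 15.2 CPM in control class II-high cells.

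The class II activator Ciita was nearly confined to the selected cells. It had 20 UMIs or 35.6 CPM in knockdown and 38 UMIs or 41.4 CPM in control class II-high cells, against 0.0642 and 0.103 CPM in the other cells. Its partners were found at similar levels in both kinds of cell. Rfxap had 33.8 CPM in class II-high and 30.8 CPM in other knockdown cells, and 28.3 and 30.7 CPM in those of the control. Rfx5, Rfxank, Nfya, Nfyb and Nfyc were between 5.34 and 30.2 CPM in knockdown class II-high cells. None of the 8 genes of this list reached the minimum. Of 8 MHC class I genes at the minimum, 1 was higher (Tapbp) and 1 lower (Calr).

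The dendritic label was checked against marker lists. Itgax (CD11c) had 19.6 CPM in class II-high and 0.193 CPM in other knockdown cells, and 37.0 and 0.455 CPM in those of the control. Zbtb46, a transcription factor of conventional dendritic cells, had 2 and 4 UMIs in the class II-high cells of the knockdown and control library, and Flt3, the receptor for the dendritic growth factor Flt3 ligand, had 6 and 7. Ccl17, Kmo and Itgax were thus present, while Zbtb46 and Flt3 were at the edge of detection. Ciita was not counted here, because it switches on the genes used for the selection. Of the dendritic transcription factors, Irf8 had 286 CPM in class II-high and 38.7 CPM in other knockdown cells, and 256 and 52.6 CPM in those of the control. Id2, which opposes E proteins, had 653 and 49.6 CPM in the knockdown and 655 and 45.7 CPM in the control library. Irf4 had 37.4 and 0.177 CPM in the knockdown and 45.7 and 0.579 CPM in the control library.

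The lists did not place the cells in 1 dendritic subset. Of the type 1 list, Batf3 had 55.2 CPM in knockdown and 41.4 CPM in control class II-high cells, whereas the defining markers Xcr1, Clec9a, Cadm1 and Tlr3 together had 2 and 5 UMIs. Of the type 2 list, Mgl2, a lectin, had 146 and 172 CPM, and Cd209a and Clec4a4 had at most 1 UMI in either library. Of the plasmacytoid list, Siglech had 3 UMIs in 2 knockdown and 11 UMIs in 4 control cells, and 1 control cell held 8 of them. Irf7 had 0 and 1 UMIs, and Ccr9 had 0 in both. Not all of this list was sparse, as Tcf4, given below, was found in both cultures. The only gene of the list at the minimum was higher but short of 2-fold. Its log2 ratio to other cells was 0.76 in the knockdown and 0.52 in the control library. Other members went the other way: Irf8 of the type 1 list and Irf4 of the type 2 list, given above, were higher in class II-high cells. The type 1 list summed to 987 and 335 CPM in class II-high and other knockdown cells, and to 935 and 363 CPM in those of the control. In the same order, the type 2 list had 301, 117, 319 and 150 CPM, and the plasmacytoid list 279, 137, 225 and 136 CPM.

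Markers of lymphoid, mast and erythroid cells were sparse in the class II-high cells, and those of monocytes, macrophages, neutrophils and granulocyte-monocyte progenitors were found in them. Of 8 B cell genes, 6 had 0 UMIs in all class II-high cells, among them Ms4a1, Cd79a and Igkc, while Ighm had 107 CPM in knockdown and 123 CPM in control class II-high cells. The B cell list summed to 112 CPM in class II-high and 77.3 CPM in other knockdown cells, and to 126 and 64.9 CPM in those of the control. Of 6 T, NK and innate lymphoid genes 4 were at 0, and Il7r had 8.90 and 9.80 CPM. Though sparse, this list was also higher in class II-high cells. It summed to 10.7 and 0.128 CPM in the knockdown and to 10.9 and 0.248 CPM in the control library. Of 8 macrophage genes 1 was at 0 (Mertk) and none reached the minimum. The list summed to 60.5 CPM in class II-high and 21.5 CPM in other knockdown cells, and to 88.2 and 25.98 CPM in those of the control, mostly from Adgre1 and Fcgr1. The complement genes C1qa, C1qb and C1qc had at most 4 UMIs each. Of 7 megakaryocyte and erythroid genes 5 were at 0. Of 10 mast cell and basophil genes 5 were at 0, and the list summed to 32.0 CPM in knockdown and 15.2 CPM in control class II-high cells, against 230 and 248 CPM in the other cells. Of 10 monocyte genes 1 was at 0, and the list summed to 1032 CPM in class II-high and 2177 CPM in other knockdown cells, and to 1173 and 2836 CPM in those of the control. Its gene Ly6c2 was lower, at 370 CPM in class II-high and 1812 CPM in other knockdown cells, and at 241 and 2241 CPM in those of the control, but Ccr2, a chemokine receptor of monocytes, was higher, at 92.5 and 22.3 CPM in the knockdown and 122 and 38.9 CPM in the control library. Csf1r, the receptor for M-CSF, had 64.0 and 4.83 CPM in the knockdown and 96.9 and 9.06 CPM in the control library.

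The genes of the sort markers Sca-1 and Kit went in opposite directions between class II-high and other cells. The starting cells were not measured, so whether either level was kept from them was not tested. Ly6a, the gene of Sca-1, had 192 CPM in class II-high and 5.86 CPM in other knockdown cells, and 191 and 6.72 CPM in those of the control. Kit, the receptor for SCF, had 8.90 and 25.3 CPM in the knockdown and 4.36 and 24.5 CPM in the control library. Csf2rb, the shared signalling chain of the GM-CSF receptor, had 482 and 66.0 CPM in the knockdown and 514 and 76.4 CPM in the control library. Of 15 S phase genes 11 reached the minimum and 1 was lower (Rrm2), and of 15 genes of G2 and mitosis 12 reached it and 0 were past 2-fold. Short of 2-fold, the S phase genes were lower, with median log2 ratios of -0.77 in the knockdown and -0.72 in the control library. Their list summed to 922 and 1521 CPM in class II-high and other knockdown cells, and to 822 and 1463 CPM in those of the control. The G2 and mitosis list took a median of 0.0665% and 0.155% of a cell's UMIs in the knockdown, and 0.0719% and 0.143% in the control library. Mki67, a mark of dividing cells, had 135 and 131 CPM in the knockdown and 148 and 139 CPM in the control library.

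**Figure D3:**
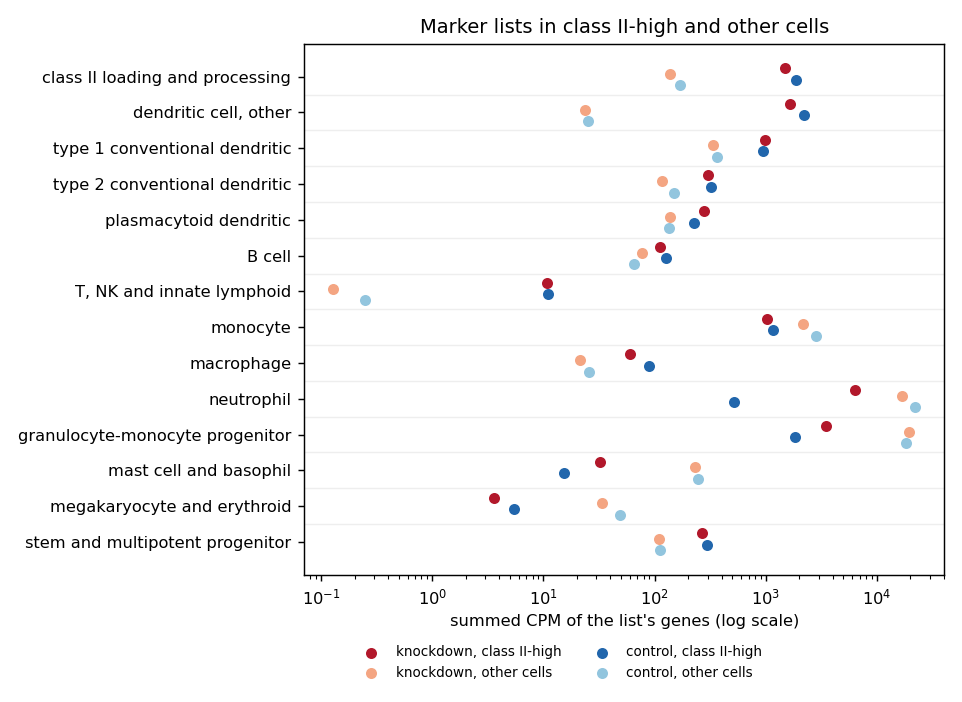
Summed CPM of each marker list, on a log scale. Dark points are class II-high cells, pale points other cells, red or orange the knockdown and blue the control library; the class II loading list is higher and the granulocyte-monocyte progenitor and neutrophil lists are lower in class II-high cells, and the neutrophil list stands at 6333 CPM in knockdown and 514 CPM in control class II-high cells.

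Within the class II-high cells, the genes whose level followed the summed class II level most closely included H2-DMb2 and cystatin C. Rank correlations were computed over the 63 knockdown and 62 control cells for 2110 genes, as a description. H2-DMb2 had a Spearman rho of 0.54 in the knockdown and 0.64 in the control library, Cst3 (cystatin C, abundant in dendritic cells) 0.50 and 0.53, Ckb 0.58 and 0.48, Cd52 0.51 and 0.52, and S100a11 0.47 and 0.66. At the other end, Prtn3, a granule protease, had -0.57 and -0.51, and Ly6c2 had -0.50 and -0.39. The total UMIs of the cells had -0.11 and -0.12. In both libraries 27 genes were above 0.3 and 25 below -0.3. All genes of a cell share its depth.

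In each library 3 class II-high cells held transcripts of Ccr7, the receptor that draws mature dendritic cells to lymph nodes, of 12 cells with a Ccr7 UMI in the knockdown and 5 in the control library. They made up 2.68% and 3.65% of the UMIs of the class II-high cells, yet held 203 of 205 Ccl5 UMIs in the knockdown and 325 of 326 in the control library. Among 5108 genes with at least 10 UMIs in the class II-high cells of both libraries, Ccr7 itself and Ccl5 were the only 2 with at least 80% of their UMIs in these cells in both. Their class II shares were 1.19%, 0.362% and 1.80% in the knockdown and 2.01%, 5.38% and 0.357% in the control library.

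The Ccr7 cells were not alike. In the knockdown library, 1 cell had 9 Ccr7, 191 Ccl5, 7 Ccl22 and 4 Fscn1 UMIs, and each of the other 2 had 1 Ccr7 and 6 Ccl5 UMIs with no Ccl22. In the control library, 1 cell had 23 Ccr7, 234 Ccl22, 31 Fscn1, 57 Apol7c, 206 Ccl17 and 15 Cd83 UMIs but no Ccl5. A second control cell had 14 Ccr7, 65 Ccl22, 25 Fscn1, 64 Ccl17 and 36 Ccl5 UMIs, and the third had 5 Ccr7, 15 Ccl22, 7 Fscn1 and 289 Ccl5 UMIs. Fscn1 encodes the actin bundler fascin of mature dendritic cells, Ccl22 a second ligand of CCR4, and Cd83 a maturation marker. The cell with most Ccl5 had 1 Ccl17 UMI in the knockdown and 0 in the control library.

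The targeted gene was checked within the selected cells. Cxxc5 (ENSMUSG00000046668, chromosome 18, 35829397 to 35861688, plus strand, GRCm38) encodes a zinc finger protein of the CXXC family that acts on Wnt signalling and helps to keep Irf7 expressed in plasmacytoid dendritic cells. It had 6 UMIs or 10.7 CPM in knockdown class II-high cells (3.92 to 23.2) and 39 UMIs or 42.5 CPM in those of the control (30.2 to 58.1). The log2 ratio was -1.99 (-3.52 to -0.74). In the other cells it had 1.08 CPM in the knockdown and 8.75 CPM in the control library, a log2 ratio of -3.02 (-3.42 to -2.65). Whether the 2 ratios differ was not tested, and their intervals overlapped.

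Class II-high cells were rich in Cxxc5 in both cultures, at 9.93-fold the other cells in the knockdown and 4.85-fold in the control library. A Cxxc5 UMI was found in 6 of 63 knockdown cells (9.52%) and 32 of 62 control cells (51.6%), and no knockdown cell held more than 1. At 5000 UMIs per cell the shares were 4.26% in the knockdown and 19.6% in the control library. They were 0.658% and 4.01% in the other cells of these libraries. The 6 knockdown cells with a Cxxc5 UMI had a median class II share of 0.291% and those without one 0.595%, whereas in the control library the medians were 0.969% and 0.491%.

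The knockdown was then set against the control within the class II-high cells. Genes with at least 50 CPM in class II-high cells of either library were compared, 28.1 UMIs in the knockdown and 45.9 UMIs in the control library. A gene could thus reach the minimum through the culture where it is higher, and the counts by list below are read with that limit. Of 2555 genes, 142 (5.56%) were at least 1.5-fold higher in knockdown cells and 93 (3.64%) were at least 1.5-fold lower. The median log2 ratio was -0.01. In the other cells, the same genes gave 5 higher and 56 lower, with a median of 0.02. The class II-high sums rest on far fewer UMIs, 562112 in the knockdown and 918387 in the control library, against 62305486 and 48349931 in the other cells. In 24 of the higher genes at least 50% of the knockdown UMIs lay in 3 cells, and in 9 of the lower genes at least 50% of the control UMIs did.

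The genes with the highest ratios in the knockdown cells included several of neutrophil granules and secretions. S100a8 and S100a9, the subunits of calprotectin, had 3449 and 1996 CPM in knockdown class II-high cells and 303 and 131 CPM in those of the control. Their log2 ratios were 3.51 (3.33 to 3.70) and 3.93 (3.66 to 4.22). Lcn2 (lipocalin 2), with 135 CPM in knockdown and 4.36 CPM in control cells, and Ngp, with 575 and 25.0 CPM, had 4.96 (3.54 to 6.87) and 4.52 (3.91 to 5.20). All of these were higher in other cells than in class II-high cells of either library, where S100a8 had 9066 CPM in the knockdown and 12092 CPM in the control library. Camp, BC100530 and Stfa1 (a stefin), Chil3, Nkg7, Slpi, Wfdc21 and Pglyrp1 were the rest of the 12 highest, with log2 ratios between 1.48 and 2.85. Stfa1 and BC100530 belong to the stefin family, whose members are alike in sequence, and how reads that fit several of them were counted is not stated in these sources, so their separate levels are uncertain.

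For S100a8, S100a9, Ngp and Lcn2, 3 knockdown cells held most of the UMIs. One knockdown class II-high cell held 1073 S100a8 UMIs and another 619, and the next held 53, while the richest control cell held 70. The 3 knockdown cells in which the neutrophil list took at least 1% of UMIs (18.3%, 7.85% and 1.10%) held 89.1% of the knockdown S100a8 UMIs and 96.6% of those of Ngp. No control class II-high cell reached 1%, and of the other cells 22.5% in the knockdown and 28.8% in the control library did. Without these 3 cells the log2 ratio was 0.40 for S100a8, -0.39 for S100a9, -0.27 for Ngp, 1.96 for Lcn2, 0.47 for Camp, 0.33 for Chil3, 0.25 for BC100530 and -0.74 for Stfa1. It was 0.76 for Wfdc21 and 0.40 for Pglyrp1, while Slpi, a secreted protease inhibitor, had 1.65 and Nkg7 1.95. The 2 richest cells also held 38 and 108 Ccl17 UMIs and 7 Plet1 UMIs each. Whether they were doublets was not tested beyond the doublet score, which was not among the highest for any of the 3.

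Of the 10 neutrophil markers listed, 5 reached 50 CPM, and Ngp, Lcn2 and Camp did so only through the knockdown cells, so that their being higher was fixed by the minimum. S100a8 and S100a9 reached it in both cultures. Over all 10 the list summed to 6333 CPM in knockdown and 514 CPM in control class II-high cells. The defining marker Ly6g was at 0 in all class II-high cells, and Retnlg likewise. Of the 6 progenitor granule genes 5 reached 50 CPM in both cultures and were higher in the knockdown cells, with a median of 0.94. Elane, neutrophil elastase, had 1107 CPM in knockdown and 578 CPM in control class II-high cells, and Prtn3 had 1206 and 659 CPM. This list took at least 1% of UMIs in 3 knockdown and 4 control class II-high cells, and 3 of each were among the cells with the highest doublet scores. With the highest doublet scores removed, the median was -0.09 and Nkg7, a granule membrane protein, had a log2 ratio of -0.34 rather than 1.87.

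The genes lowest in the knockdown cells included chemokines and genes of mature dendritic cells. Ccl22 had 23 UMIs or 40.9 CPM in knockdown and 317 UMIs or 345 CPM in control class II-high cells, a log2 ratio of -3.08 (-3.76 to -2.47). Fscn1 had 19.6 and 68.6 CPM, a ratio of -1.81 (-2.88 to -0.87), and reached the minimum only through the control cells. Both rest on the Ccr7 cells described above, which held 99.1% of control Ccl22 UMIs and all 63 control Fscn1 UMIs. Without the Ccr7 cells Ccl22 had a log2 ratio of 3.11 (1.3 to 5.53), from 16 UMIs of 1 knockdown cell against 3 UMIs of the control, and Fscn1 had no UMI left in the control cells. That knockdown cell, which also held the 6 Fscn1 UMIs left, was among the neutrophil-rich cells described above, at 7.85% of UMIs from the neutrophil list. Ccl9 had 46.3 CPM in knockdown and 198 CPM in control cells, a ratio of -2.10 (-2.75 to -1.50), and 1 control cell held 51.6% of its control UMIs. Ccl6, a neighbouring chemokine of Ccl9, had 125 and 298 CPM, a ratio of -1.26 (-1.66 to -0.88).

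Several of the 12 lowest genes were found in more cells. Csf2ra, the ligand-binding chain of the GM-CSF receptor, had 21.3 CPM in 9 knockdown cells and 53.4 CPM in 28 control cells, a log2 ratio of -1.32 (-2.37 to -0.39), and its ratio in the other cells was 0.06. Cd34, a progenitor surface protein, had 37.4 CPM in 12 knockdown cells and 81.7 CPM in 31 control cells, -1.13 (-1.90 to -0.41). Csf2ra and Cd34 reached the minimum only through the control cells, so that their being lower was fixed by the minimum. The knockdown cells were also shallower, with a median of 7943 UMIs against 14167, and the part of depth in these numbers of cells was not tested. Bcl2a1a, an anti-apoptotic gene induced by GM-CSF, had 72.9 and 159 CPM, -1.12 (-1.66 to -0.62), and its near-copy Bcl2a1d had 90.7 and 177 CPM, -0.97 (-1.45 to -0.51). The Bcl2a1 copies are alike in sequence, and how reads that fit several of them were counted is not stated in these sources, so the level of each is uncertain. Mmp12, a macrophage metalloprotease, Qpct, Zfand6, Spp1 (osteopontin) and Ccl4 had ratios between -1.27 and -1.06. For Mmp12 the mean of single-cell CPM went the other way, at 0.12, for Spp1 1 control cell held 66.1% of the UMIs, and Ccl4 was found in only 3 knockdown and 4 control cells.

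**Figure D4:**
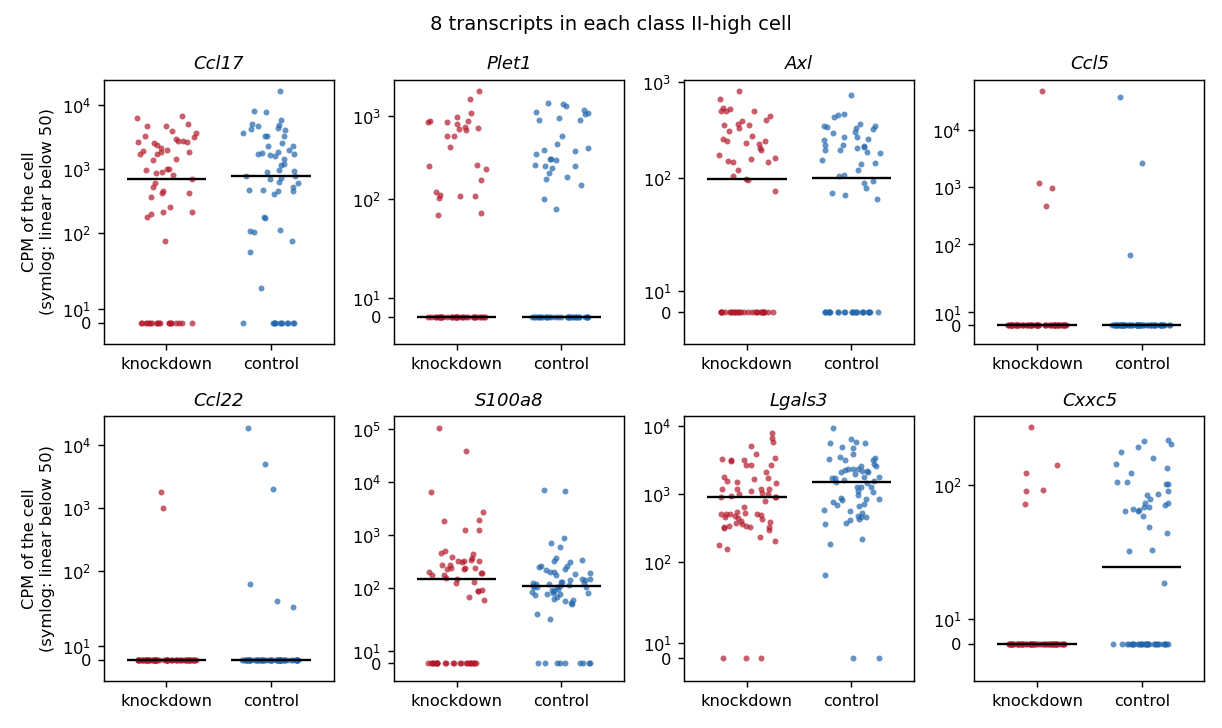
CPM of 8 transcripts in each class II-high cell, knockdown left (63 cells) and control right (62 cells), with medians as lines; the axis is linear below 50 CPM and logarithmic above. Ccl17, Plet1, Axl and Lgals3 are spread over many cells in both cultures, while Ccl5, Ccl22 and the high S100a8 values belong to few.

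Broadly detected genes gave smaller differences between the cultures. Lgals3 (galectin 3) was found in 60 knockdown and 60 control cells, at 1306 CPM in knockdown and 1992 CPM in control class II-high cells, a log2 ratio of -0.61 (-0.73 to -0.48). S100a4 had 247 and 469 CPM, -0.92 (-1.21 to -0.65). Both were also lower in the other cells of the knockdown library, with ratios of -0.97 and -1.37. Clec4n had a ratio of -0.93 (-1.35 to -0.53) in class II-high cells, and H2-DMb2 had -0.69 (-1.0 to -0.37), the only one of 7 class II loading genes at the minimum to pass 1.5-fold. Of the 20 leading genes, 2 were past 1.5-fold higher in the knockdown cells (Apol7c and Mfge8) and 4 lower (Ccl4, Clec4n, Asgr2 and H2-DMb2). Over all genes compared, 5.56% were higher and 3.64% lower. Apol7c and Ccl4 were not broadly detected but found in few cells, as given above. Ccl17 had -0.18 (-0.30 to -0.06) and did not pass, and Plet1 had -0.12 (-0.42 to 0.17) and Axl 0.10 (-0.28 to 0.48). Id2, Irf8 and Csf2rb had ratios of -0.01, 0.16 and -0.09.

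By list, the counts at the minimum stand beside 5.56% higher and 3.64% lower over all genes. Of 12 dendritic and monocyte transcription factors at the minimum, 2 were higher in knockdown class II-high cells (Tcf4 and Cebpe) and 1 lower (Batf), with a median of 0.18. Tcf4, an E protein of plasmacytoid dendritic cells, had 67.6 and 34.8 CPM, 0.96 (0.24 to 1.68). It reached the minimum only through the knockdown cells, which fixed its direction. Of 5 monocyte genes 1 was higher (Ly6c2) and 2 lower (Lyz2 and Csf1r), and of 5 cytokine and innate receptors 2 were lower (Csf1r and Csf2ra). Of 8 chemokine and cytokine genes 4 were lower and 0 higher (Ccl4, Ccl6, Ccl9 and Ccl22), with a median of -0.72. Ccl9, Ccl22 and Csf2ra reached the minimum only through the control cells, so that their being lower was fixed by the minimum. Ccl4 and Ccl22 also rested on few cells, as given above. Of 10 galectin and S100 genes 2 were higher (S100a8 and S100a9) and 2 lower (Lgals3 and S100a4). Of 8 MHC class I genes and of 5 interferon-induced genes, 0 passed in either direction. Of 10 S phase genes and of 11 genes of G2 and mitosis, 1 each was higher (Mcm2 and Cdc20) and 0 lower.

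**Figure D5:**
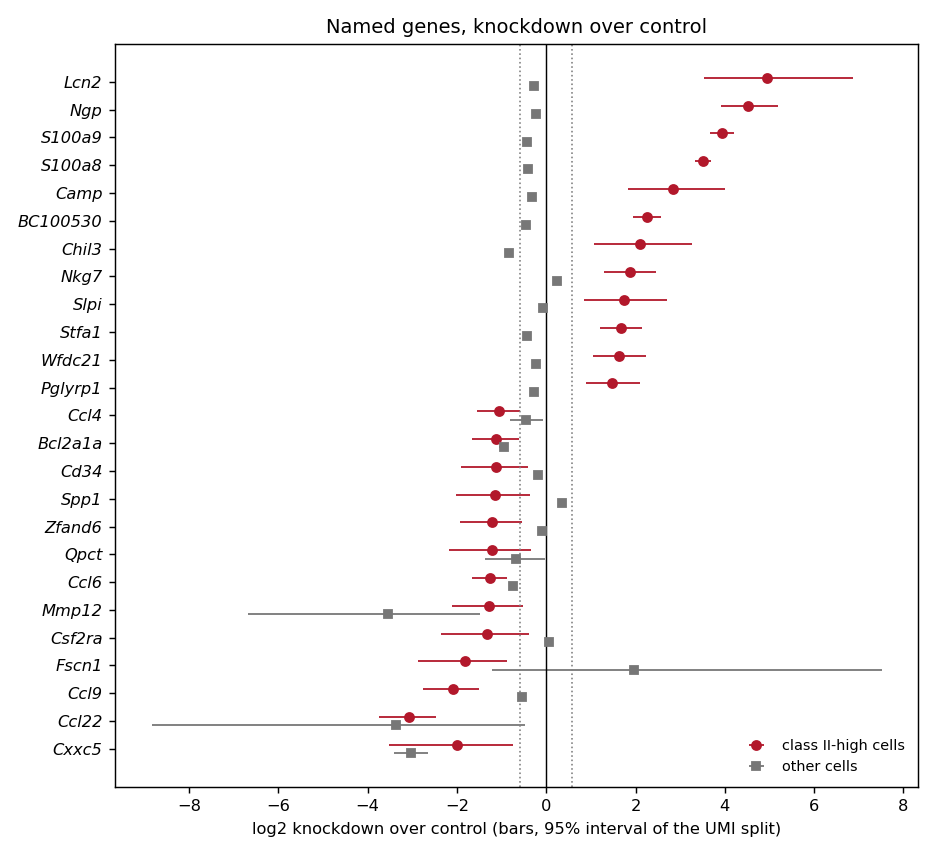
Log2 ratio of knockdown over control for the 12 highest and 12 lowest genes and Cxxc5, in class II-high cells (red circles) and in other cells (grey squares), with 95% intervals from the split of the UMIs; dotted lines mark 1.5-fold. The 12 highest genes lie between 1.48 and 4.96 in class II-high cells and below 0 in the other cells, except Nkg7 at 0.24, and Cxxc5 lies at -1.99 and -3.02.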

How the data were processed

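Single cells of 2 libraries were measured, 1 per group. The authors deposited raw UMI counts for each gene and barcode. The submitters' processing notes name Cell Ranger 2.1.1 and mm10, and no source used here states the annotation release. The tables list 28692 genes, and 67 symbols belong to more than 1 gene. Raw totals were 62910229 UMIs in 6015 knockdown and 49333454 UMIs in 2925 control barcodes, and the 2 limits on cells removed 11 and 13 barcodes.

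UMIs were summed per library over class II-high and over other cells and scaled to CPM. Intervals are exact (Poisson, split of UMIs, Clopper-Pearson; scipy 1.17.1), at 95%; a count of 0 is read against a floor of 3 UMIs. No test was run across libraries. The arithmetic was tested on simulated data. Scrublet (scanpy 1.11.5) marked 6 knockdown and 1 control cells, too few to rely on, so doublets were kept. As an alternative, the 288 knockdown and 68 control cells with the highest scores were removed (0.8% per 1000 cells).

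Named genes were the 20 highest and 8 lowest ratios of class II-high to other cells, by the library nearer to 1 and at 50 CPM or more, the 12 highest and 12 lowest knockdown ratios, Cxxc5, the 5 genes most like class II, and members of 32 lists, with 373 of 374 entries matched. Other genes were chosen after their values were seen, as were the groups of Ccr7 and neutrophil-rich cells. The members and lists were chosen with earlier results of these data known. Promoters are RefSeq sequences and gene positions are from GENCODE M21, both on GRCm38, the assembly that mm10 denotes. A threshold of 2-fold (1.5-fold between cultures) stands in for a test.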

Additional observations from a re-analysis of the deposited data

Results flagged for a closer look

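Chil3, a chitinase-like protein of granulocytes and macrophages, was past 1.5-fold in opposite directions in the 2 kinds of cell. It had 29 UMIs in knockdown and 11 UMIs in control class II-high cells, a log2 ratio of 2.11 (1.06 to 3.26). The minimum was 28.1 UMIs in the knockdown and 45.9 UMIs in the control library. Chil3 thus reached it only through the knockdown cells, so that its being higher in class II-high cells was fixed by the minimum. In the other cells it had 254 CPM in the knockdown and 452 CPM in the control library, a ratio of -0.83. The difference between the 2 ratios was 2.94 and was not tested. Without the 3 knockdown cells rich in neutrophil transcripts the ratio in class II-high cells was 0.33.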

How the results depend on the processing

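Counts of genes followed the minimum. With 20 CPM, 100 CPM and no minimum, 294, 50 and 1120 genes were at least 2-fold higher in class II-high than in other cells, 248, 61 and 534 were lower, 612, 41 and 2198 were at least 1.5-fold higher in knockdown class II-high cells, and 429, 35 and 1542 were lower. In cells thinned to 5000 UMIs, where fewer UMIs are summed, 340 genes were higher and 324 lower in the knockdown. Without the 10 cells richest in each gene, 137 were higher and 444 lower. That setting removes the cells where each gene is highest, and the part of the lower depth of the knockdown cells in these counts was not tested. The class II log2 ratio was -0.34 with the stricter limits, -0.36 in thinned cells and -0.37 without the Ccr7 cells, and the shares of cells and the Cxxc5 ratio stayed within their intervals under the alternatives tried for them.

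The cause of these changes was not tested. Among the genes with the highest and lowest knockdown ratios, S100a9 (-0.36), Pglyrp1 (-0.42), Ngp (-2.75) and BC100530 (-0.78) changed sign without the 10 richest cells. Without the neutrophil-rich cells S100a9 (-0.39), Ngp (-0.27) and Stfa1 (-0.74) did so. Nkg7 (-0.34) did so without the highest doublet scores, Ccl22 (3.11) without the Ccr7 cells, and Mmp12 (0.12) as a mean of cells. Medians of several lists also changed sign. Among them was the progenitor granule list, at -0.092 without the highest doublet scores. The median of the dendritic maturation list went from -0.14 to 0.59 without the Ccr7 cells. That of the type 2 list went from -0.24 to 0.14 in thinned cells. The settings without neutrophil-rich or Ccr7 cells, and the counts without the 10 richest cells, were added after seeing the data. Where a group had 0 UMIs left, no ratio was computed. No paired analysis was possible because each group is 1 library. With 562112 and 918387 UMIs in the class II-high cells of the knockdown and control library, 1 UMI is 1.78 and 1.09 CPM, which limits what can be said of sparse genes.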

Other observations

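Some genes of cytokine feedback, the lysosome and the cytoskeleton were also at least 2-fold apart between class II-high and other cells in both libraries. The counts by list in this section stand beside 4.84% higher and 5.06% lower over all genes compared. Socs2 and Cish, feedback genes of cytokine receptors that use STAT5, had 135 and 80.1 CPM in class II-high cells and 42.0 and 27.8 CPM in other cells of the knockdown library. In the control library they had 169 and 109 CPM in class II-high cells and 36.8 and 29.8 CPM in other cells. Of 11 lysosomal genes at the minimum, 3 were higher (Psap, Laptm5 and Grn) and 2 lower (Cd63 and Ctsd). Psap, the precursor of the saposins, had 521 CPM in class II-high and 124 CPM in other knockdown cells, and 588 and 163 CPM in those of the control. Cd63, a tetraspanin of granules and endosomes, had 199 and 913 CPM in the knockdown and 250 and 1037 CPM in the control library. Of 12 actin and dendrite genes, 2 were higher, the intermediate filament gene Vim and the actin-binding gene Tmsb10. Tmsb10 had 2243 and 604 CPM in the knockdown and 1838 and 652 CPM in the control library.

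Among other transcription factors, Runx3, of the Runx family, had 205 CPM in class II-high and 40.4 CPM in other knockdown cells, and 198 and 39.6 CPM in those of the control. Cebpa and Cebpe, factors of granulocyte development, were lower in class II-high cells. Of 5 BCL2 family genes at the minimum, 2 were higher, Mcl1 and Bcl2a1b, of which the second has near copies and an uncertain level. Ifitm3, a membrane protein induced by interferon, had 2452 and 879 CPM in the knockdown and 2648 and 795 CPM in the control library, and it was the only one of 5 interferon-induced genes past 2-fold. Between the cultures, of the genes named so far here Cebpe was the only one past 1.5-fold in class II-high cells. Few genes of the remaining lists reached the minimum. Of 6 genes of dendritic maturation 4 were higher in class II-high than in other cells and 1 was lower (Anxa3), and of 5 endocytic and lectin receptors 2 were higher (Clec4n and Axl) and 1 lower (Clec12a). Cd48, the ligand of CD244, was the only gene of costimulation at the minimum and was higher. Of 2 cytokine and innate receptors, Csf2rb was higher and the interferon gamma receptor gene Ifngr1 lower.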
